A study of Mus musculus with 2 samples.

Results

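The mouse genes named Zfp followed by a number were compared between the mesoangioblast clones D16 and D351. Members were all genes whose symbol is Zfp plus digits and that had a probe set annotated to a single gene. There were 101 such genes, with 123 probe sets, among 5928 genes and 11868 probe sets in all. Zfp stands for zinc finger protein, so the members share a name rather than a single job. Most encode DNA-binding proteins with C2H2 fingers, small folds in which a pair of cysteines and a pair of histidines hold a zinc ion. Many also carry a KRAB domain, which recruits the corepressor Trim28 and heterochromatin enzymes, and genes of this kind lie in clusters that arose by tandem duplication and are known for silencing mobile elements. Others act in development, in RNA binding or at the centrosome.

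Mesoangioblasts are vessel-associated mesodermal progenitor cells. Both clones came from C57BL6 mouse embryos at embryonic day 9.5. Explants of the dorsal aorta were dissociated, and single cells were cloned by limiting dilution over a feeder layer of growth-arrested embryonic fibroblasts, then expanded on gelatin. Neither clone carried a stated transgene or received a stated treatment, and each is 1 clone represented by 1 array of total RNA (Affymetrix murine U74 set, array C). No difference below therefore has a replicate check, no test was possible, and precision is limited by the number of arrays.

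The intensities were linear and were used as deposited. A value at or below 6.4, the median of all values of both arrays, was called dim and was raised to 6.4 before log2 was taken. A gene was called measured when it was above 6.4 in at least 1 clone, and it was read from its brightest probe set. Log2 ratios are given as D351 minus D16. Where a gene was dim in only 1 clone, its fold is a lower bound and carries the words "at least". Negative control probe sets reached 11.2. Hybridization controls, transcripts added to each sample, gave a brighter signal on the D16 array (median 1.59-fold), so a direction here is relative to the bulk of probe sets. Of the 5 embryonic fibroblast markers on the array, the cell type of the feeder layer, 4 were measured and all 4 passed 2-fold towards D351. The list had a summed intensity of 654.5 for D16 and 2355.4 for D351. They were Mfap5 (6.14-fold), Fgf10 (4.76-fold), Col5a1 (3.38-fold) and Loxl1 (3.19-fold), and Col5a2 was dim in both clones. Of 8 smooth muscle genes, 7 were measured and 4 passed towards D351, Lmod1 (at least 45-fold), Itga8 (8.74-fold), Synpo2 (4.26-fold) and Acta2 (at least 2.41-fold). Flnc passed towards D16 (2.27-fold, 2384.6 and 1048.4), Cnn2 and Tpm1 were under 2-fold, and Myocd was dim in both. This list, with Flnc in it, had a summed intensity of 2521.4 for D16 and 2164.6 for D351. Of 4 endothelial genes, 3 were measured, with Flt1 towards D351 (at least 13.7-fold), Egfl7 towards D16 (at least 3.05-fold) and Kdr under 2-fold at 1.6 and 9.5, while Sox17 was dim in both. The haematopoietic marker Itga2b read 38.7 and 49.9. Of 2 pluripotency markers, Pou5f1 was dim in both and Sall4 passed towards D16 (3.01-fold). Scaled to the hybridization controls, Kdr and Itga2b also passed 2-fold towards D351, and Flnc and Sall4 no longer passed towards D16. The part of these cell type genes in the differences below was not tested.

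More Zfp genes were higher in D351 than in D16. Among the 78 measured, 11 passed 2-fold towards D351 (14.1%) and 5 towards D16 (6.41%). Over all 3934 measured genes the shares were 10.3% for D351 and 10.2% for D16. The D351 share was above the background and the D16 share below it, each by a few genes. Among the 68 members above the floor in both clones, 8 passed 2-fold towards D351 (11.8%) and 3 towards D16 (4.41%), against 8.56% and 9.25% of the 3061 genes so measured. With the floor raised to 20.7, the 75th percentile of all values, 4 of 58 members passed towards D351 (6.90%) and 2 towards D16 (3.45%). Of all genes, 7.91% and 8.33% did. With the floor lowered to 1.8, the 25th percentile, 14 of 95 members passed towards D351 (14.7%) and 10 towards D16 (10.5%). Of all genes, 14.6% and 15.6% did. At these floors the D351 share was below or level with that of all genes. Scaled to the hybridization controls, 35 of 82 members passed towards D351 and 1 towards D16, against 28.2% and 4.02% of all genes. The share of 2-fold members that were higher in D351 was 68.8% as deposited and 97.2% with that scaling. Of all genes past 2-fold, 404 of 807 were higher in D351 as deposited. With that scaling, 1192 of all genes passed towards D351 and 170 towards D16, so most calls of any kind then lay towards D351.

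The median log2 ratio of the measured members was 0.15, with quartiles of -0.35 and 0.67, and the median of all measured genes was -0.022. As deposited, 43 members lay above 0 and 35 below. Scaling to the hybridization controls moved the median of all genes to 0.59 and that of the members to 0.79, and only 7 members then lay below 0. The difference between both medians was 0.17 as deposited and between 0.11 and 0.20 in the alternatives tried. Some of these could hardly change it. Scaling 1 array by a factor shifts both medians together, and a 3-fold rule leaves the ratios as they are. With the line drawn at 1.5-fold, 24 members were higher in D351 (30.8%) and 10 in D16 (12.8%), against 20.7% and 20.6% of all measured genes. Members were also measured more often than all genes on the array, 77.2% against 66.4%.

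**Figure D1:**
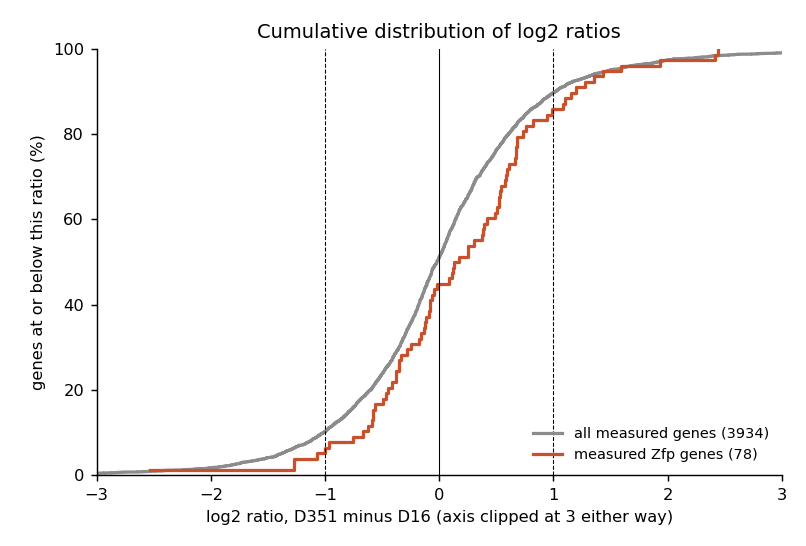
Share of genes (%) at or below each log2 ratio, D351 minus D16, for the 78 measured Zfp genes and all 3934 measured genes, with dashed lines at 2-fold. The Zfp curve lies to the right of the curve of all genes through most of its middle, with medians of 0.15 and -0.022.

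The largest ratios towards D351 belonged to Zfp407 and Zfp287. Zfp407 (probe set 134147_f_at, chromosome 18), a nuclear protein linked to control of glucose transporter expression in fat cells, read 22.5 in D16 against 122.2 in D351, a 5.43-fold difference. Its probe set carries the mark f, given to sequence shared within a family. Zfp287 (128681_at, chromosome 11), a protein with SCAN and KRAB domains, stood at 26.3 in D16 against 139.9 in D351, a 5.32-fold difference. Both values of either gene lay above the range of the negative controls, and both folds were the same with the floor at 20.7.

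Zfp113 (129141_at, chromosome 5) followed with 9.3 in D16 against 35.5 in D351, a 3.82-fold difference. The D16 reading was no brighter than the negative controls, and with the higher floor it was at least 1.71-fold higher. Zfp979 (165755_r_at, chromosome 4), also known as Ssm1b, a strain-specific modifier of transgene methylation, had 16.2 in D16 and 48.8 in D351. That is a 3.01-fold difference, or at least 2.36-fold with the higher floor. Zfp799 (134152_at, chromosome 17) read 11.9 in D16 against 32.1 in D351 (2.70-fold), and Zfp433 (135205_at, chromosome 10) read 83 in D16 against 176.2 in D351 (2.12-fold). All values of both genes were above the range of the negative controls, Zfp799 in D16 only narrowly. With the higher floor Zfp799 was at least 1.55-fold higher in D351, under 2-fold, and Zfp433 kept its fold.

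The remaining D351 calls were dimmer. Zfp455 (133111_f_at), 1 of a family of candidates for the regulator of sex-limited liver genes, read 8.9 in D16 and 21.5 in D351. Zfp53 (133893_at), also called KRAZ1 and a KRAB repressor, read 9.3 in D16 and 20 in D351. Zfp771 (168950_at) was above the floor in D351 alone, at 16.4 against 4.4 in D16, at least 2.56-fold higher. Zfp934 (166539_at), at 1.3 in D16 and 14.7 in D351, was at least 2.30-fold higher, and Zfp13 (165749_r_at), at 4.7 and 14.2, at least 2.22-fold. Under a floor of 20.7, Zfp771, Zfp934, Zfp13 and Zfp53 were dim in both clones and Zfp455 was at least 1.04-fold higher. In D16 none of these 5 was brighter than the highest negative control.

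Of the 5 members higher in D16, Zfp626 (133970_at, chromosome 7) had the largest ratio, at 37.1 in D16 and 1.7 in D351, at least 5.80-fold. Its other probe set showed no such difference, at 8.8 in D16 and 8.9 in D351. Zfp787 (166238_r_at, chromosome 7) read 64.5 in D16 against 26.7 in D351 (2.42-fold), while a second probe set read 31.5 and 35.4 and the remaining one was dim in both. Zfp511 (165616_at, chromosome 7) stood at 80.6 in D16 against 33.4 in D351 (2.41-fold), and its other probe set was dim in both clones. Zfp346 (169941_i_at, chromosome 13), known as Jaz and a binder of double-stranded RNA, read 31 in D16 and 14.8 in D351. Zfp62 (137201_r_at) sat on the line, at 12.8 in D16 and 6 in D351. Zfp511 and Zfp787 stayed past 2-fold with the floor at 20.7, and Zfp626 (at least 1.79-fold), Zfp346 (at least 1.5-fold) and Zfp62 (dim in both) did not. Scaled to the hybridization controls, Zfp626 alone of these 5 stayed past 2-fold.

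**Figure D2:**
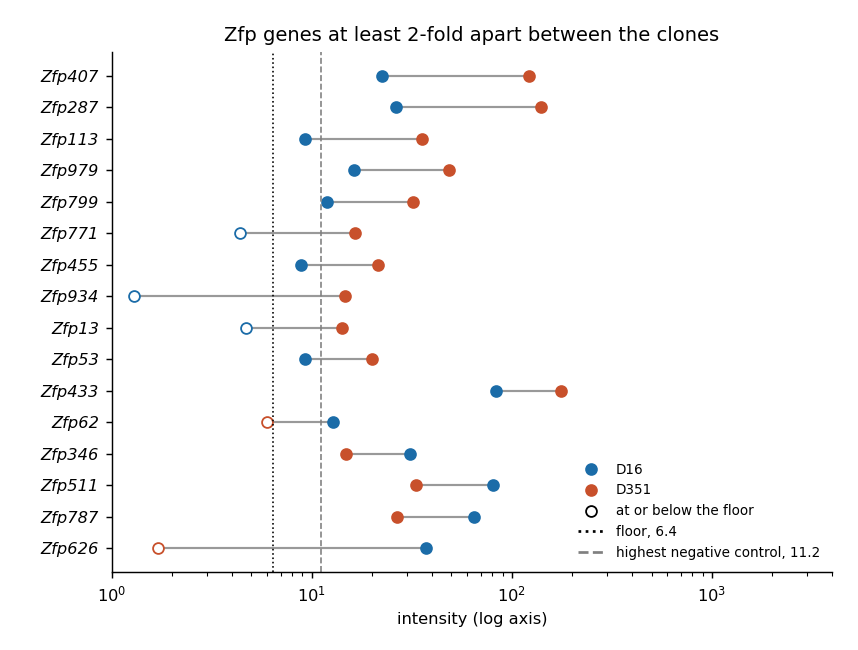
Intensity (log axis) in D16 (blue) and D351 (orange) of the 16 Zfp genes at least 2-fold apart, with values at or below the floor of 6.4 drawn open. The dashed line marks the highest negative control at 11.2, and in 8 of the 16 genes the lower value lies at or below it.

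In all, 8 of the 16 had a lower value no brighter than the negative controls. Ratios between values above the floor in both clones made up 8 of the 11 calls towards D351 and 3 of the 5 towards D16. Marked probe sets, whose identifier carries a letter for relaxed probe selection or shared sequence, gave 4 of the 11 and 3 of the 5. Zinc finger genes resemble each other in sequence, so the marks bear on which transcript is read. With unmarked probe sets only, 7 of 50 measured members were higher in D351 (14%) and 2 in D16 (4.0%), against 10.5% and 10.1% of all genes.

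The promoters of the members with the largest ratios are shown because the array reads transcript levels and these are the regions from which the transcripts start. They were taken from RefSeq (GRCm38.p6), which held promoters for 84 of the 101 genes, as the 250 bases before the annotated start, 5′ to 3′ on the gene's strand. The 3 with the largest ratio in each direction and a single promoter in that table were printed. Zfp407 was not among the 84 genes with a promoter there. Capitals mark matches, on either strand, to 6 motifs. The GC box was searched as GGGCGG and the CCAAT box by the letters of its name. The core bound by ETS factors was searched as CCGGAA, and the TATA box as TATAAA. The NRF1 and BANP palindromes were the other motifs, and neither was found in these 6 windows. Adjacent and overlapping matches run together. The D351 set comprises Zfp287 at chr11:62731897-62732146 (minus strand), Zfp113 at chr5:138155745-138155994 (minus) and Zfp979 at chr4:147642509-147642758 (minus). The D16 set comprises Zfp626 at chr7:27806946-27807195 (plus), Zfp787 at chr7:6155966-6156215 (minus) and Zfp511 at chr7:140036141-140036390 (plus).
Zfp287: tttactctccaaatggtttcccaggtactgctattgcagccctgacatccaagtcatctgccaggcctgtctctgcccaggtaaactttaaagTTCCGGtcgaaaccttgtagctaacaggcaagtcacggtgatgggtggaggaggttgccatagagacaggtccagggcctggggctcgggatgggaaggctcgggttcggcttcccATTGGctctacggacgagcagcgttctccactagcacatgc
Zfp113: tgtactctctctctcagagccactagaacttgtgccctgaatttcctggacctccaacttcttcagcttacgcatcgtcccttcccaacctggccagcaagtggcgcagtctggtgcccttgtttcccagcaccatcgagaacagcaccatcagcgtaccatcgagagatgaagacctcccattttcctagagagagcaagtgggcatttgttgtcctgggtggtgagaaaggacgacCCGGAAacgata
Zfp979: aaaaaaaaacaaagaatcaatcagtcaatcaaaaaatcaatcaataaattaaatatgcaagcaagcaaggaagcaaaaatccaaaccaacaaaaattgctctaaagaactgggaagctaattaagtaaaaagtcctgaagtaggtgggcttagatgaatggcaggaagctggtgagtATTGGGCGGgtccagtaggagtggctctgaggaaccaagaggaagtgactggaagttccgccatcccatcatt
Zfp626: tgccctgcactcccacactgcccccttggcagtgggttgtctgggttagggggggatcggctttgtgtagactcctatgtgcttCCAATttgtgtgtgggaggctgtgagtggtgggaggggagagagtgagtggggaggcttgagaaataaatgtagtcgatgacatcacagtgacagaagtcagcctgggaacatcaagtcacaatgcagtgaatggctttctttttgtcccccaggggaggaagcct
Zfp787: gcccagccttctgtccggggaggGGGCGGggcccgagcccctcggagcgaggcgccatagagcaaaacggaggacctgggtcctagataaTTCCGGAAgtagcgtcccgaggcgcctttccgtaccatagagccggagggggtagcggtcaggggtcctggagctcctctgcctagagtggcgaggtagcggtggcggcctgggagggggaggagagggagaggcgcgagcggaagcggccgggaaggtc
Zfp511: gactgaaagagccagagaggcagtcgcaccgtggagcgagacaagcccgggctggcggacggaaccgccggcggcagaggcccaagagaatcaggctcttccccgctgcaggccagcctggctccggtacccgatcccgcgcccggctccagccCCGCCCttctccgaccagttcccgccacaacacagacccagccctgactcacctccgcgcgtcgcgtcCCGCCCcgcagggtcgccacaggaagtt

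The Zfp511 and Zfp787 promoters were rich in CpG, with 26 and 22 CpG dinucleotides and a GC content of 70.4% and 69.2%. Zfp626 and Zfp979 had 2 each, and GC contents of 54.0% and 39.6%. The Zfp287 and Zfp113 promoters had 9 each. GC box letters were present in Zfp511, Zfp787 and Zfp979. The ETS core was present in Zfp287, Zfp113 and Zfp787. Over all 99 promoter windows of the members, the median GC content was 55.6% with 11 CpG, against 52.4% and 6 over all 32851 windows in the table. The GC box was held by 44.4% of member windows and 32.7% of all windows, CCAAT by 46.5% and 33.8%, the ETS core by 24.2% and 12%, and TATAAA by 6.06% and 12.4%. The ETS core was present in 6 of 9 windows of members at least 2-fold higher in D351, in 1 of 7 of those higher in D16, in 15 of 63 of those under 2-fold and in 2 of 20 of those dim in both. The GC box was present in 4 of the 9 and 6 of the 7, and CCAAT in 5 and 4. The 9 windows belong to 9 genes and the 7 to 5 genes, too few to compare. A match is a run of letters and does not show that a factor binds there.

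A further 13 members were between 1.5-fold and 2-fold higher in D351, and 5 in D16. Zfp467, also called Ezi, which favours fat over bone cells in marrow stroma, fell just short of 2-fold at 13.6 in D16 and 27 in D351. Zfp112 read 17.1 and 32.9, and Zfp449, on the X chromosome, 152.9 and 269.7. Zfp365, a centrosome and DISC1-binding protein, had 327.2 in D16 and 523.7 in D351. Zfp652, a partner of the corepressor Cbfa2t3, had 253.7 in D16 and 403.8 in D351. Towards D16, Zfp296, a partner of reprogramming factors in pluripotent cells, read 83.5 in D16 against 42.8 in D351 (1.95-fold). Zfp949 stood at 17.1 and 10.1 and Zfp507 at 17 and 10.7.

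The other 44 measured members differed by under 1.5-fold. Zfp592, which shares a complex with Zfp687, read 153.4 in D16 and 150.9 in D351. Zfp687 itself read 31.1 and 24.3. Zfp827, which brings a chromatin remodeller to telomeres, read 96 in D16 and 92.9 in D351. Zfp369, a neurotrophin receptor interactor, read 262.8 and 248.9, Zfp41 199.8 and 211.7, Zfp707 85 and 80, and Zfp324 28.7 and 31. Apart from Zfp687, these 6 had the smallest ratios among members above 20.7 in both clones.

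**Figure D3:**
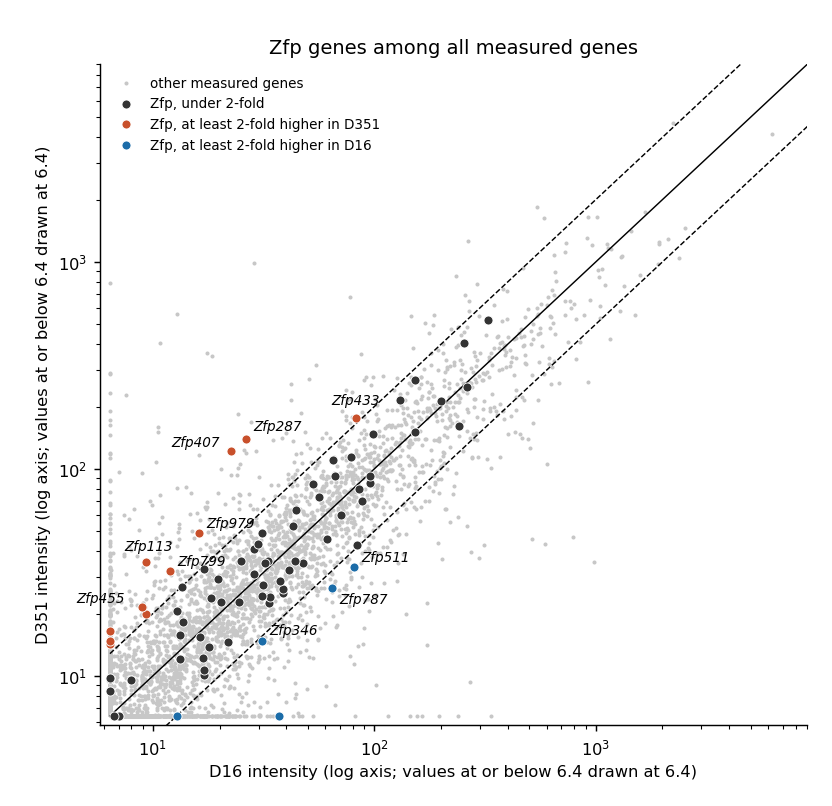
Intensity in D16 against D351 (both log axes) for measured genes, with dim values drawn at 6.4; the solid line marks equality and the dashed lines 2-fold. Most Zfp genes lie between the dashed lines, 62 of the 78 measured, while Zfp287 and Zfp407 lie farthest above them.

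Of the 101 members, 23 were dim in both clones. They were Zfp2, Zfp74, Zfp94, Zfp414, Zfp474, Zfp534, Zfp553, Zfp593, Zfp612, Zfp616, Zfp651, Zfp664, Zfp735, Zfp763, Zfp783, Zfp788, Zfp825, Zfp831, Zfp867, Zfp868, Zfp941, Zfp991 and Zfp995. Zfp783 is the only member that RefSeq lists as a non-coding RNA gene. Dim means not above 6.4, and such a gene may still be transcribed. Another 6 members were dim in D16 alone and 4 in D351 alone.

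A list of members with better known roles, mainly in development, held none past 2-fold as deposited. When scaled to the hybridization controls, 5 of 6 passed towards D351. Of all measured genes, 10.3% passed towards D351 and 10.2% towards D16 as deposited, and 28.2% and 4.02% with that scaling. The list is too short to compare with those shares. Of 6 on the array, all measured, 5 lay above 0 and 1 below as deposited, with a median of 0.58. Zfp809, which recruits Trim28 to retroviral DNA, read 130.1 in D16 against 216.3 in D351 (1.66-fold). Zfp148, a binder of GC-rich promoters, read 31 and 49.2. Zfp423, a cofactor of BMP signalling and of fat cell commitment, was dim in D16 at 3 and read 9.8 in D351, near background in both. Zfp704 read 18.3 and 23.9. The corepressor component Zfp217 read 78.4 in D16 and 113.8 in D351, but its other probe set read 11.1 and 7.1. The sixth was Zfp369.

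Several members could be read by more than 1 probe set, and these often differed. Of 20 genes with more than 1 probe set, 10 had 2 measured ones, and in 9 both were above the floor in both clones. Among those 9 pairs, 6 had the same sign as deposited and the median difference between the log2 ratios was 0.40. The SD per probe set was 0.49 over the 9 members and 0.67 over the 409 genes of the whole array with such a pair. A 2-fold ratio is 1 on this log2 scale, not far above that spread. Zfp40 (65.4 and 110.6; 10.2 and 25.3), Zfp365 (second probe set 41.9 and 80.4) and Zfp809 (41.4 and 52) were higher in D351 by both probe sets. The dimmer Zfp40 probe set was past 2-fold and the brighter was not. Zfp629 (71 and 59.8; 10.4 and 7.6), Zfp827 (second 102.7 and 79.4) and Zfp935 (24.6 and 22.7; 16.3 and 16) were slightly higher in D16 by both. Zfp692 read 56.1 and 72.8 by 1 and 55.2 and 53.4 by the other. Of the 16 members past 2-fold, only Zfp626 and Zfp787 had a second measured probe set, and neither second reading passed 2-fold.

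**Figure D4:**
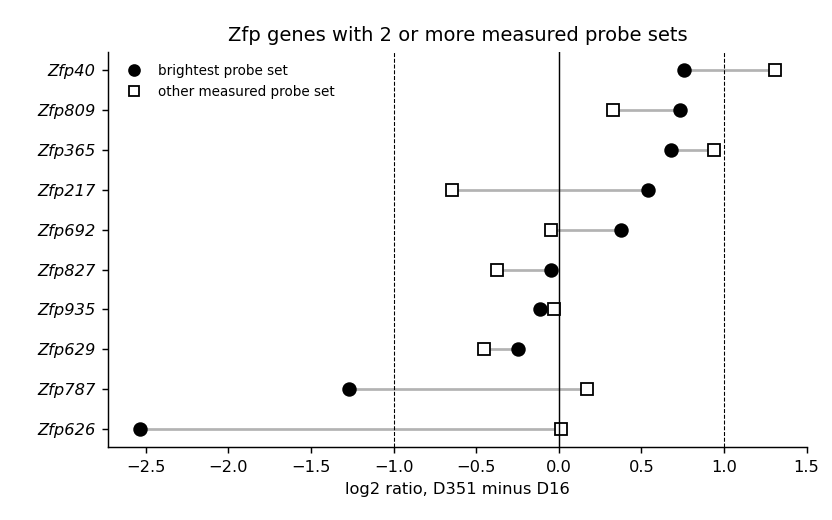
Log2 ratio, D351 minus D16, of each measured probe set of the 10 Zfp genes with 2 or more (filled circle, brightest; open square, other), with dashed lines at 2-fold. Zfp626 and Zfp787 lie beyond 2-fold by the brightest probe set and near 0 by the other.

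The members lay on 16 chromosomes, with 31 of the 101 on chromosome 7. There 26 were measured, 1 passed 2-fold towards D351 and 3 towards D16, and the median was -0.16. Over all 308 measured genes of chromosome 7 the median was -0.17, and 21 passed towards D351 and 40 towards D16. The 52 measured members on other chromosomes had a median of 0.40, and 10 passed towards D351 (19.2%) and 2 towards D16 (3.85%). Of all measured genes, chromosome 7 included, 10.3% and 10.2% did. On chromosome 17, 3 of 6 measured members passed towards D351 and 0 towards D16 (median 0.93), while all 162 measured genes there had a median of -0.13, with 17 higher in D351 and 25 in D16. These splits were made after the values had been seen and have no test.

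Loci were grouped into clusters, a cluster being a chain of Zfp genes in the RefSeq gene order with at most 5 other protein-coding genes between neighbours. That table held 372 Zfp genes. At least 3 members on the array were found in 8 clusters, 31 members in all. Of these 31, 24 were measured, 5 passed 2-fold towards D351 (20.8%) and 1 towards D16 (4.17%), and the median was 0.46. All measured genes had shares of 10.3% and 10.2%. With the floor raised to 20.7, only 1 cluster member passed towards D351 and 1 towards D16. Outside the clusters, 54 members were measured, 6 passed towards D351 (11.1%) and 4 towards D16 (7.41%), and the median was 0.030. The array held few genes of each cluster, so a cluster is described only by those.

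The cluster of chromosome 13 from Zfp640 to Zfp273, 20 genes long, had 3 members on the array, all named as candidates for the regulator of sex-limitation. All 3 lay towards D351, Zfp455 by 2.42-fold, Zfp58 at 52.6 in D16 and 84.2 in D351, and Zfp595 at 43.1 and 53.2. Zfp455 and Zfp58 were read by probe sets with the mark f, for sequence shared within a family. Whether these 2 readings are separate was not tested. With the higher floor Zfp455 was at least 1.04-fold higher. The chromosome 4 cluster from Zfp990 to Zfp933, 16 genes long, had Zfp979 and Zfp987 (99 and 147.3) towards D351, and Zfp991 and Zfp534 dim in both. The chromosome 6 cluster from Zfp786 to Zfp467 had Zfp398 (29.9 and 43.2), Zfp956 (32 and 34.9) and Zfp467 all towards D351 but under 2-fold, with Zfp783 dim. On chromosome 17, the cluster from Zfp160 to Zfp13, 23 genes long, had Zfp53, Zfp40 and Zfp13 towards D351, Zfp944 towards D16 (33.8 and 24) and Zfp995 dim. The other chromosome 17 cluster, from Zfp871 to Zfp563, had Zfp799 towards D351, Zfp870 towards D16 (60.9 and 45.8) and Zfp763 dim.

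The 3 clusters of chromosome 7 were mixed. From Zfp787 to Zfp28, Zfp787 and Zfp667 (38.6 and 25.1) lay towards D16, Zfp28 stood near the floor (7 and 6.2), and Zfp583 was dim in D16 and read 9.6 in D351. From Zfp180 to Zfp94, Zfp180 read 31.3 and 27.6, Zfp112 lay towards D351 and Zfp94 was dim. From Zfp84 to Zfp146, Zfp27 (38.8 and 26.3) and Zfp383 (88.4 and 69.9) lay towards D16, Zfp420 (8 and 9.5) and Zfp940 (6 and 8.4) towards D351 near background, and Zfp74 was dim. Scaled to the hybridization controls, 13 members of the 8 clusters passed 2-fold towards D351 and 0 towards D16. Over all measured genes the shares were then 28.2% and 4.02%.

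**Figure D5:**
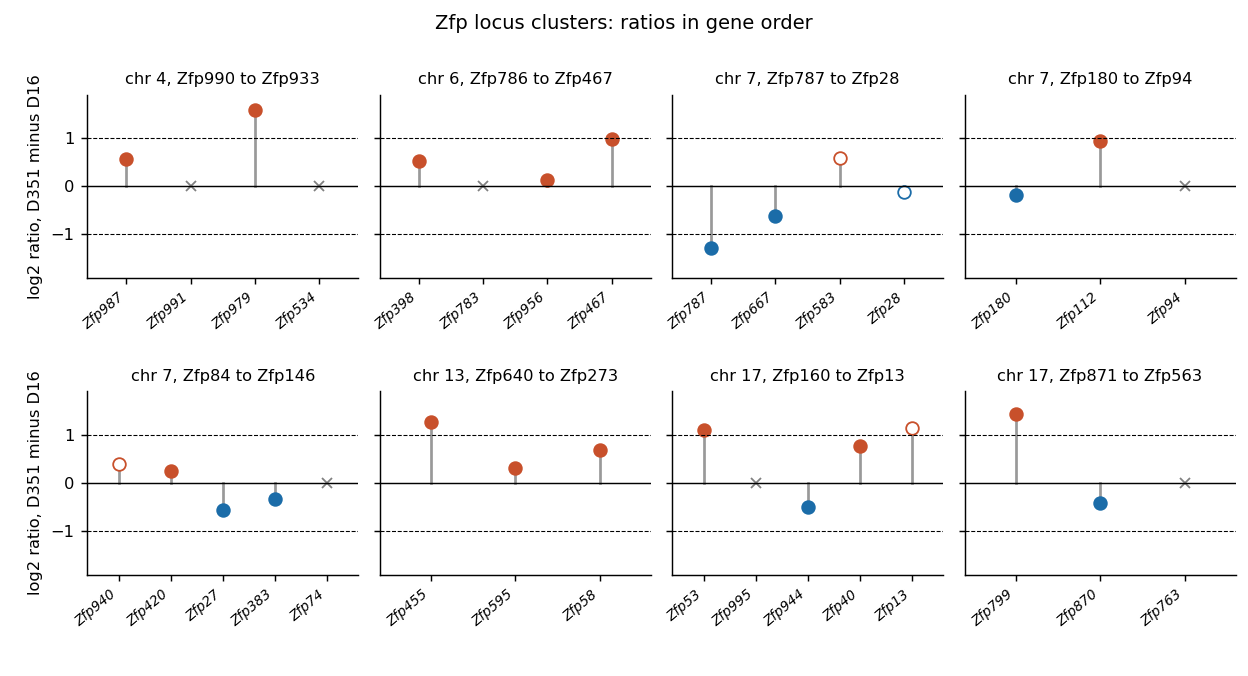
Log2 ratio, D351 minus D16, of Zfp genes on the array in 8 locus clusters, in gene order; orange lies towards D351 and blue towards D16, open circles are lower bounds, crosses are genes dim in both clones and dashed lines mark 2-fold. As deposited, all measured genes of the clusters on chromosomes 4, 6 and 13 lie above 0, while those on chromosomes 7 and 17 lie on both sides. Zfp455 and Zfp58 on chromosome 13 were read by probe sets marked f.

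The signs of neighbouring members were mixed as deposited. With 43 measured members above 0 and 35 below, any 2 members would often differ in sign. Other pairs of genes were not counted for comparison, and several of the neighbours read near the floor. Among 17 pairs of neighbours measured on the array, with at most 5 other protein-coding genes between them, 8 had the same sign, and the median difference between their log2 ratios was 0.81. Of 10 pairs with no other protein-coding gene between, 2 had the same sign, Zfp940 with Zfp420 and Zfp27 with Zfp383. Scaled to the hybridization controls, 16 of the 17 and all 10 had the same sign, with most ratios then above 0. The widest gap was on chromosome 11, where Zfp287 stood at 26.3 in D16 and 139.9 in D351 and its neighbour Zfp286 at 18 and 13.8. On chromosome 17, Zfp799 lay towards D351 and its neighbour Zfp870 towards D16, 1.84 apart on the log2 scale. On chromosome 13, Zfp934 was at least 2.30-fold higher in D351 while its neighbour Zfp935 read 24.6 in D16 and 22.7 in D351.

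The corepressor genes that KRAB zinc finger proteins work with were compared from a list of 30 genes, of which 10 were on the array and 8 were measured. None passed 2-fold towards D351 and 2 did towards D16 (25%), against 10.3% and 10.2% of all measured genes, and the median was -0.28. Trim28, the corepressor that binds the KRAB domain, read 573.6 in D16 against 391.9 in D351, a 1.46-fold difference by a marked probe set. Uhrf1, which reads hemimethylated DNA, read 33.4 in D16 against 12.5 in D351 (2.67-fold), also by a marked probe set. Suv39h2, a histone methyltransferase of heterochromatin, was at least 2.97-fold higher in D16, at 19 in D16 and dim in D351. Cbx5, a heterochromatin protein, read 117.8 and 99.2, and the chromatin remodeller Atrx 33.2 and 26.7. Morc3 (9.9 and 12.7) and Daxx (6 and 7.3) lay towards D351, both near background, and Cbx3 read 6.6 and 2. After scaling to the hybridization controls, 1 of 9 measured genes passed towards D351 (Morc3) and 1 towards D16 (Suv39h2). Of all genes, 28.2% and 4.02% did. Uhrf1 was then under 2-fold at -0.74, Trim28, Cbx5 and Atrx lay above 0, and the median was 0.35.

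Zinc finger genes outside the rule of Zfp plus digits were listed by symbol for comparison, 8 of them with Zfp numbers followed by letters. Of 56 on the array, 38 were measured, 3 passed 2-fold towards D351 (7.89%) and 3 towards D16 (7.89%), and the median was 0.025. The shares of all measured genes were 10.3% and 10.2%. The list is loose, since Zfp85os in it is an antisense transcript. Those higher in D351 were Zbtb44 (176.7 in D16 and 454.2 in D351), Ikzf4 (16.4 and 41.2) and Zfp119a, which was dim in D16 and read 20.9 in D351. Those higher in D16 were Sall4, a stem cell factor (73.7 and 24.5), Sp4 (64.3 and 22.7) and Zkscan17 (55.2 and 24.5), all 3 by marked probe sets. With scaling to the hybridization controls, 13 of 39 passed towards D351 and 0 towards D16, against 28.2% and 4.02% of all genes. Sall4 was then at -0.92, and the median was 0.70. Whether the members differ from this list was not tested, as 1 array per clone gives no test.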

How the data were processed

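Total RNA of 1 array per clone was analysed from the table of intensities that the authors deposited, 1 linear intensity for each of 11934 probe sets. The software that made these intensities is not given in the sources used here. The mean without the lowest and highest 2% of values was 20.01 on both arrays. The 66 control probe sets were set aside. Of the remaining 11868, 7717 had a single gene in the platform annotation, 150 had several and 4001 were unnamed here. 5 probe sets with several genes that included a Zfp symbol were not used. All 101 members were found in the RefSeq gene table (GRCm38.p6), with 0 symbols changed.

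The floor, the 2-fold rule and the brightest probe set per gene were applied to all genes, and the members were then read out. The text names every member past 2-fold, the 6 steadiest members above the 75th percentile, members with 2 or more measured probe sets, cluster members and, from each other list, up to 4 genes past 2-fold per direction (the brightest where none passed). Members between 1.5-fold and 2-fold and other examples were chosen after their values were seen. The members and lists were chosen with earlier results of these data known. Alternatives were 4 scalings, 2 other floors, a pseudocount, a 3-fold rule, unmarked probe sets and the mean over probe sets. The scalings were applied to the gene lists after the data had been seen. The steps were tested on simulated data. Protein sequences were not analysed here. Python 3.11.15, numpy 2.4.6, pandas 2.3.3, statsmodels 0.14.6 and matplotlib 3.10.9 were used.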

Additional observations from a re-analysis of the deposited data

How the results depend on the processing

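As deposited, 11 Zfp genes passed 2-fold towards D351 and 5 towards D16, 5 and 1 of them in the locus clusters, over 78 measured genes with a median log2 ratio of 0.15. Scaled to the hybridization controls, the counts were 35 and 1, with 13 and 0 in the clusters, and the median was 0.79. With the floor at the 25th percentile, 10 genes were higher in D16, 3 of them in the clusters, and Zfp626 came to 0.016, because its other probe set was then the brighter. With the floor at the 75th percentile, 4 and 2 genes passed (6.9% and 3.45%), against 7.91% and 8.33% of all genes. In the clusters, 1 passed towards D351. With a pseudocount, 8 passed towards D351 (10.3%) and 3 towards D16 (3.85%), against 8.3% and 8.09% of all genes. In the clusters, 2 then passed towards D351. With a 3-fold rule, 4 and 1 passed (5.13% and 1.28%), against 4.58% and 3.56% of all genes, with 1 and 0 in the clusters. With unmarked probe sets, 50 genes were measured and 7 and 2 passed, with 2 and 0 in the clusters. With the mean over probe sets, 0 cluster genes passed towards D16. Quantile normalization, lowess centring and equal medians moved no count by more than 1.5 times. The 11 genes towards D351 all passed under the 4 scalings, and 4 of them (Zfp287, Zfp407, Zfp433 and Zfp979) with the floor at the 75th percentile. Over 46 named genes and the alternatives that gave them a ratio, 377 of 387 ratios moved by no more than 0.67 log2. That limit is the SD between probe sets of a gene. Scaling to the hybridization controls shifts a ratio measured in both clones by 0.67, just inside that limit. Many other ratios could not move. A gene with 1 measured probe set keeps its ratio under the mean over probe sets, and bright genes mostly keep theirs under other floors. The total is therefore not a measure of stability. For the gene lists, quantile normalization, lowess centring and equal medians moved no count of calls, except that lowess centring took Flnc under 2-fold. No paired analysis was possible because each clone has 1 array. Dim values limit the folds, as negative controls reached 11.2.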
